A study of Mus musculus with 10 samples.

Results

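The early genes described here were *Egr1*, *Egr2*, *Egr3*, *Nr4a1*, *Nr4a2*, *Nr4a3*, *Ier2*, *Ier3*, *Ier5* and *Phlda1*, 10 of the 54532 genes in the deposited table, picked by symbol. They were measured by RNA-seq of poly(A)-selected RNA in 10 hearts, 5 from mice given vehicle and 5 from mice given the MEK1/MEK2 inhibitor trametinib (MEKi) at 1 mg/kg daily. All 10 mice were Rit1 M90I/+, so each carried the Noonan syndrome allele of the RAS-related GTPase RIT1, and no wild-type heart was in the series. Dosing began at 4 weeks of age and lasted 20 weeks, and the methods place tissue collection 2 hours after the final dose. The allele came from a conditional line crossed to a cytomegalovirus-Cre deleter line, and it was therefore carried throughout the body. Littermates of both sexes entered the trial. The part of the heart that was sequenced is not given in the sources used here.

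Immediate early genes are transcribed within minutes of a stimulus, from factors already present in the cell, and their transcripts are short-lived. ERK, the kinase that MEK activates, phosphorylates the ELK factors that sit with serum response factor (SRF) on CArG boxes, and the cyclic AMP response element (CRE) lets CREB drive many of the same genes. EGR proteins are zinc-finger transcription factors, NR4A proteins are orphan nuclear receptors that act without a known physiological ligand, and IER proteins and PHLDA1 are smaller regulators of survival, stress and signaling. In the heart these genes are known to respond to growth factors, adrenergic stimulation and stretch. The comparison asked whether hearts under long MEK inhibition differed in these transcripts.

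Promoter sequence from RefSeq (GRCm38.p6, the assembly behind the mm10 coordinates of the files) was held for 6 of the 10 genes, in 10 windows, because *Egr2* had several annotated start sites. The 250 bases before each start site were searched on both strands. The motifs were the CArG box, the CRE core (TGACG), the full CRE (TGACGTCA) and the EGR binding sequence (GCGNGGGCG). The CArG box was taken as CC, then 6 bases that are each A or T, then GG, and near matches were not counted. The full CRE contains the core on each strand. The stretches below are shown because some *Egr2* windows held a CArG box next to CRE cores. Each NR4A gene held 4 CRE cores and no exact match to the CArG box. The *Nr4a1* stretch holds ccttgtatgg, which has a G among its middle bases and so was not counted. Bases that GENCODE M21 places in an exon were left out, and capitals mark CArG boxes and CRE cores.

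*Egr2*, directly before a start site, chr10:67537744-67537868, plus strand: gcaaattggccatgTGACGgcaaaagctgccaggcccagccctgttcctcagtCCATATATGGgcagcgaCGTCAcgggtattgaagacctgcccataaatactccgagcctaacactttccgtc
*Nr4a1*, chr15:101266596-101266845, plus strand: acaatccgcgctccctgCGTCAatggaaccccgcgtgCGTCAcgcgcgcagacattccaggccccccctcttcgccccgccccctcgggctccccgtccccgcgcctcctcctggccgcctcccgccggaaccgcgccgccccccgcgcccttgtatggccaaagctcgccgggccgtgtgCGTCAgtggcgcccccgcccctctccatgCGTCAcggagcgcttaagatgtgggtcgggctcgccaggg
*Nr4a2*, chr2:57124004-57124218, minus strand: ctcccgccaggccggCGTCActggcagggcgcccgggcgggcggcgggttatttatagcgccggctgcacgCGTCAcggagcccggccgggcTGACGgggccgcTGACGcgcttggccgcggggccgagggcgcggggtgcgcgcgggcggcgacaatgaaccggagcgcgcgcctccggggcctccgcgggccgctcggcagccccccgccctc
*Nr4a3*, chr4:48045055-48045152, plus strand: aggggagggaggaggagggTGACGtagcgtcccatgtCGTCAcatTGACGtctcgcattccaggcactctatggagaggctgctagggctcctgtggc

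Of all 32851 RefSeq windows, 1.47% held a CArG box, 17.8% held at least 1 CRE core and 0.137% held 4 or more CRE cores. The windows of *Nr4a1*, *Nr4a2* and *Nr4a3* belonged to this last class, although the fourth core of *Nr4a3*, 147 to 143 bases before the start site, lay in an M21 exon and is not printed. *Nr4a1* and *Nr4a2* also held 1 EGR sequence each, as did 4.70% of windows. The windows of *Ier3* and *Ier5* and the *Egr2* window at start site 67535499 held none of the motifs. This says only that those letters are not in these 250 bases. The *Egr2* window at start site 67537566 held a CArG box and no CRE core. No full CRE was found in the 10 windows (1.55% of all windows). *Egr1*, *Egr3*, *Ier2* and *Phlda1* had no entry.

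**Figure D1:**
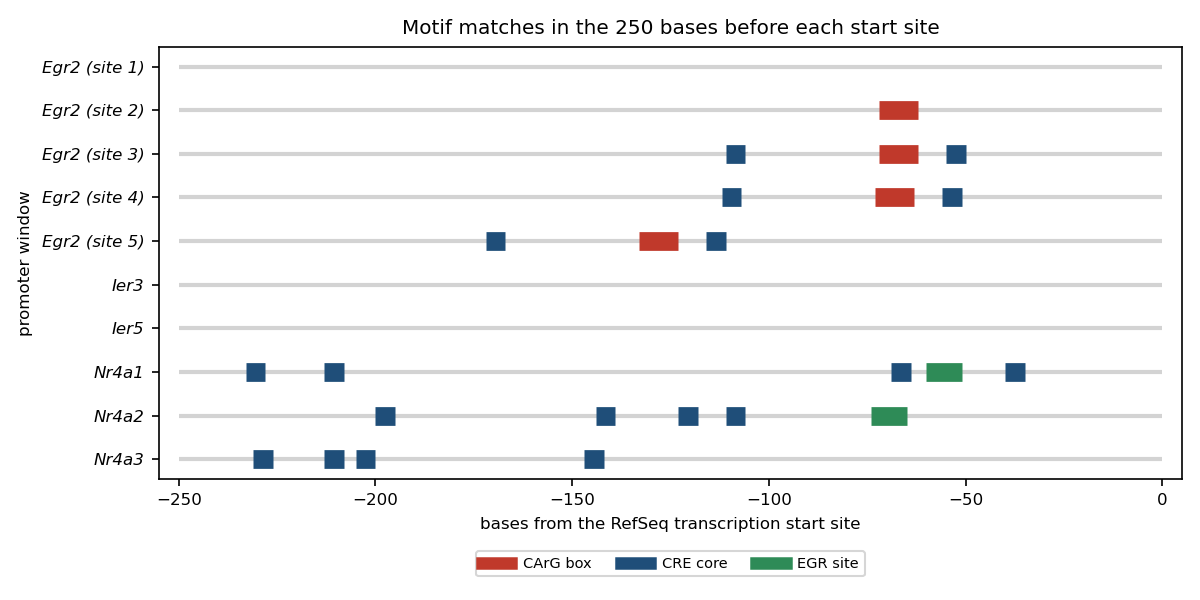
Matches to the CArG box (red), CRE core (blue) and EGR sequence (green) in the 250 bases before each RefSeq start site of the 6 early genes with an entry. Each row is 1 window, the horizontal axis gives bases from the start site, and the windows of *Nr4a1*, *Nr4a2* and *Nr4a3* each show 4 CRE cores.

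Values are FPKM, fragments scaled to gene length and to the depth of the heart by the authors, and between 13647167 and 18474002 fragments per heart were recovered from the table. The split of the hearts by sex-linked transcripts was the same as the split by treatment: *Xist* ranged from 5.16 to 6.85 FPKM in MEKi hearts and was at most 0.00662 FPKM in vehicle hearts, and the Y-linked *Ddx3y* ranged from 10.3 to 12.2 FPKM in vehicle hearts and had 0 fragments in every MEKi heart. Effects of treatment and of sex on the early genes therefore cannot be told apart. Some hearts stood apart on marker lists. The summed FPKM of 6 atrial genes was 898, 740 and 423 in vehicle heart 4, MEKi heart 2 and vehicle heart 5, and at most 59.0 in the others. All 5 atrial genes past the filter described below had a lower mean log2 level in the MEKi group. Red cell genes (5 of 5 with a lower mean in the MEKi group) summed to 23639 and 25874 FPKM in vehicle hearts 4 and 5, and to at most 7386 FPKM in the others. The 5 heat shock genes were all lower in mean with MEKi and summed to 749 and 675 FPKM in vehicle hearts 3 and 1, against 368 to 479 FPKM in the other 8 hearts. Macrophage genes (5 of 5 lower in mean) summed to between 96.7 and 178 FPKM with vehicle and between 96.5 and 116 FPKM with MEKi. Cardiomyocyte genes such as *Myh6* and *Tnni3* summed to between 9224 and 12926 FPKM over all hearts, in keeping with the heart label. Summed levels overlapped between groups for endothelial (95.7 to 147 FPKM with vehicle, 96.1 to 122 with MEKi), fibroblast (141 to 223 and 152 to 202) and smooth muscle and pericyte genes (146 to 208 and 154 to 173). No gene of these 8 lists was at 0 in all hearts, none of those tested passed an adjusted p of 0.05 (limma), and their part in the early-gene results was not tested. In whole tissue, fewer cells of a type and less RNA per cell cannot be told apart.

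Of the 10 early genes, 9 had a lower and 1, *Ier3*, a higher mean log2 level in MEKi hearts, and the change in mean FPKM ran from -67.5% for *Egr2* to 6.52% for *Ier3*. None passed an adjusted p of 0.05 over all genes (limma on log2(FPKM + 0.1) with Benjamini-Hochberg adjustment), and 0 did so with voom on the recovered fragments. At an unadjusted p under 0.05, 6 were lower: *Egr1*, *Egr2*, *Nr4a1*, *Nr4a3*, *Ier2* and *Ier5*. Of these, 5 were among the 7 early genes that averaged 0.5 FPKM or more. Over all 12602 genes tested at that level, 7.62% had such a p, 3.94% in the lower direction, and 47.9% had a lower mean log2 level. An adjusted p under 0.05 was reached by 0.0794% of these genes, and by 0 of 12178 when X, Y and mitochondrial genes were left out. The genes with lower means, *Egr2*, *Egr3* and *Nr4a2*, were read from a fit over the 24630 genes above 0 in any heart, of which 0.0447% were called and 49.3% had a lower mean. In that fit 5.78% had an unadjusted p under 0.05, 2.82% lower and 2.96% higher. The median log2 fold change of the 7 genes past the filter was -0.50, against 0.011 for all genes tested. A log2 fold change of -1 or less was found for 0.92% of all genes tested and, among the 7, for *Egr1* and *Nr4a1*. None of the 10 genes had groups that did not overlap, a state found for 0.849% of the genes tested in the direction lower with MEKi and for 0.794% in the direction higher.

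**Figure D2:**
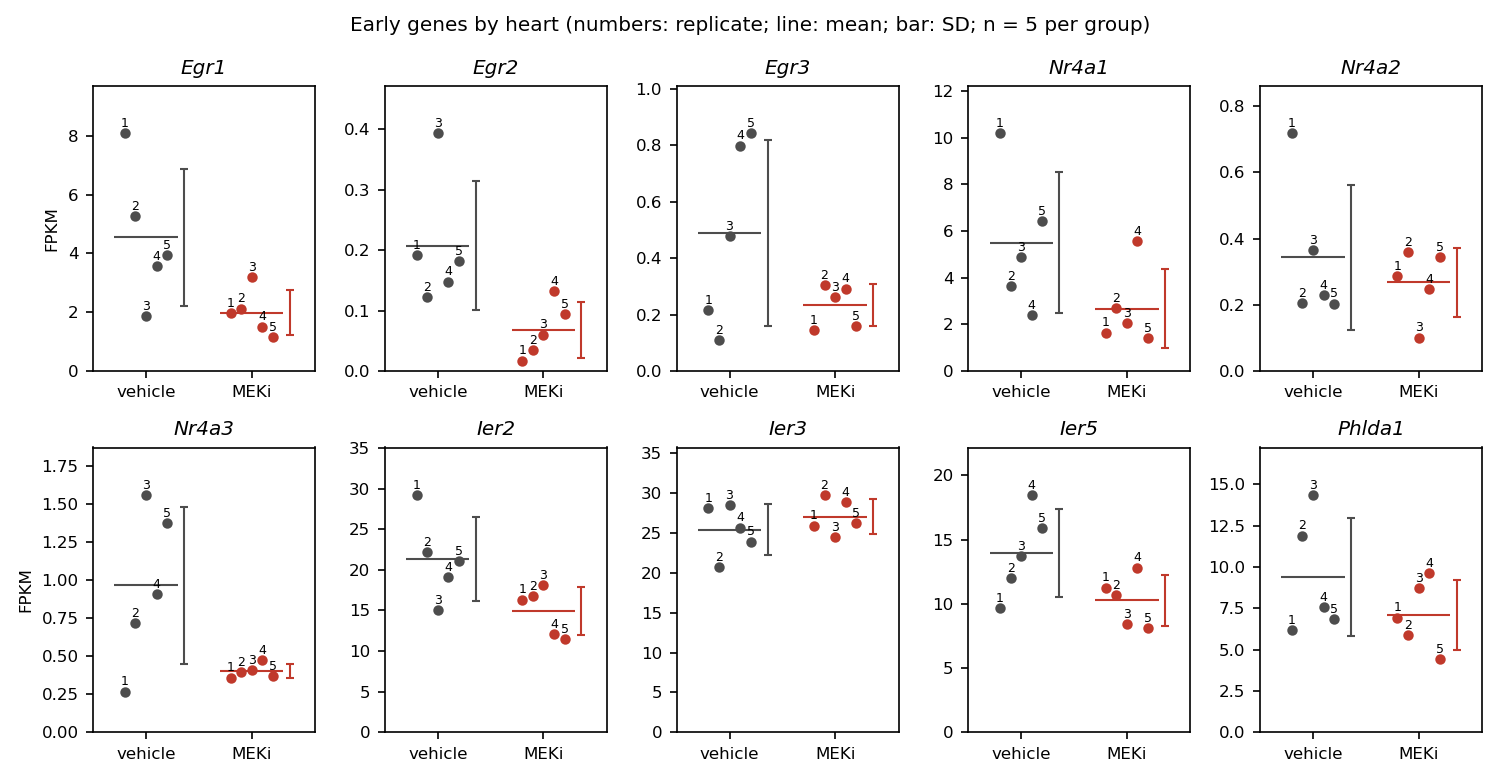
FPKM of each early gene by heart in the vehicle (grey) and MEKi (red) groups, with the replicate number above each point, the mean as a line and the SD as a bar (n = 5 per group). The groups overlap for all 10 genes, and vehicle heart 1 is the highest of all hearts for *Egr1*, *Nr4a1*, *Nr4a2* and *Ier2* and the lowest for *Nr4a3*.

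*Egr1* (ENSMUSG00000038418, chromosome 18, 34859823 to 34864984, plus strand) encodes the EGR factor most widely used as a reporter of ERK activity. It was at 8.09, 5.26, 1.87, 3.56 and 3.95 FPKM in vehicle hearts 1 to 5, and at 1.98, 2.12, 3.19, 1.51 and 1.15 FPKM in MEKi hearts 1 to 5. All 5 MEKi hearts lay below the vehicle median, and 4 vehicle hearts lay above every MEKi heart, with vehicle heart 3 among the MEKi values. The means were 4.54 ± 2.32 and 1.99 ± 0.773 FPKM (SD, n = 5 each). The log2 fold change was -1.08 (SE 0.35, 95% confidence interval -1.84 to -0.31, limma adjusted p = 0.478). A two-sided exact permutation test over the hearts gave p = 0.0397, unadjusted, where 0.00794 is the smallest possible for this and each later gene. Only 90 of the 12602 genes tested had a more negative log2 fold change, but *Egr1* ranked 255 by unadjusted p. Without vehicle heart 1 the log2 fold change was -0.84, and without vehicle heart 3 it was -1.35.

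*Egr2* (ENSMUSG00000037868, chromosome 10, 67535475 to 67542188, plus strand), best known for its role in myelinating Schwann cells, was the least abundant early gene. It was at 0.192, 0.122, 0.393, 0.148 and 0.182 FPKM in vehicle hearts 1 to 5 and at 0.0172, 0.0343, 0.0601, 0.132 and 0.0936 FPKM in MEKi hearts 1 to 5. The groups overlapped by a single pair, MEKi heart 4 being above vehicle heart 2. These values rest on 6 to 19 fragments per vehicle heart and on 1 to 8 per MEKi heart, so counting error alone is large: the pooled MEKi rate was 0.327 of the vehicle rate, with an exact 95% interval of 0.183 to 0.563 that covers counting error only. MEKi minus vehicle on the log2 scale was -0.86 (SE 0.28, 95% confidence interval -1.48 to -0.25, limma adjusted p = 0.674), and the exact permutation test gave p = 0.0159, unadjusted. Its size depended on the pseudocount, from -0.17 with 1 FPKM to -1.61 with 0.01 FPKM, and voom on the recovered fragments gave -1.64.

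*Egr3* (ENSMUSG00000033730, chromosome 14, 70077203 to 70082614, plus strand), known for roles in lymphocytes and muscle spindles, was at 0.216, 0.110, 0.479, 0.799 and 0.842 FPKM in vehicle hearts 1 to 5. MEKi hearts 1 to 5 were at 0.146, 0.304, 0.263, 0.292 and 0.159 FPKM. Vehicle hearts 3, 4 and 5 were above every MEKi heart, whereas vehicle hearts 1 and 2 lay within or below the MEKi range. On the log2 scale the difference was -0.63 with an interval that spans 0 (SE 0.43, 95% confidence interval -1.57 to 0.31, limma adjusted p = 0.831; exact permutation test, p = 0.190). Vehicle hearts 4 and 5, the highest for *Egr3*, were also 2 of the 3 hearts high in atrial genes. With these 3 hearts left out the log2 fold change was -0.13, a setting that takes away the highest *Egr3* values. A link to atrial tissue was not tested.

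*Nr4a1* (ENSMUSG00000023034, chromosome 15, 101254269 to 101274795, plus strand), which encodes NUR77, was the most abundant of the NR4A receptors. It was at 10.2, 3.64, 4.89, 2.39 and 6.42 FPKM in vehicle hearts 1 to 5 and at 1.65, 2.69, 2.04, 5.56 and 1.41 FPKM in MEKi hearts 1 to 5. Each group had a high heart, vehicle heart 1 and MEKi heart 4, and 3 MEKi hearts lay below every vehicle heart. The means were 5.50 ± 3.01 and 2.67 ± 1.69 FPKM (SD, n = 5 each). The difference on the log2 scale was -1.03 (SE 0.41, 95% confidence interval -1.91 to -0.14, limma adjusted p = 0.585; exact permutation test, p = 0.0714). Without MEKi heart 4 the log2 fold change was -1.33, and without vehicle heart 1 it was -0.77.

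*Nr4a3* (ENSMUSG00000028341, chromosome 4, 48045153 to 48086447, plus strand), which encodes NOR1, differed from *Nr4a1* in how its hearts were ordered. It was at 0.268, 0.718, 1.56, 0.912 and 1.38 FPKM in vehicle hearts 1 to 5 and at 0.361, 0.399, 0.409, 0.476 and 0.372 FPKM in MEKi hearts 1 to 5. The MEKi hearts formed a narrow band with 4 vehicle hearts above it and vehicle heart 1, the highest for *Nr4a1*, below it. The means were 0.968 ± 0.519 and 0.403 ± 0.0452 FPKM (SD, n = 5 each). On the log2 scale MEKi minus vehicle was -0.91 (SE 0.36, 95% confidence interval -1.70 to -0.12, limma adjusted p = 0.585; exact permutation test, p = 0.0476). Leaving out vehicle heart 1 gave -1.25 and the lowest adjusted p of any early gene in any alternative (limma, 0.144). The coefficient of variation was 11.2% among MEKi hearts, less than the 15.8% that counting error alone gives at 35 to 51 fragments per heart, and 53.6% among vehicle hearts.

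*Nr4a2* (ENSMUSG00000026826, chromosome 2, 57106830 to 57124003, minus strand) encodes NURR1, known for its role in dopaminergic neurons. It was at 0.717 FPKM in vehicle heart 1 and between 0.203 and 0.364 FPKM in the other vehicle hearts, which lay within the MEKi range of 0.101 to 0.359 FPKM except for vehicle heart 3. With an interval on both sides of 0, the log2 fold change was -0.21 (SE 0.35, 95% confidence interval -0.98 to 0.55, limma adjusted p = 0.885; exact permutation test, p = 0.571). It was 0.036 without vehicle heart 1, so the sign of the *Nr4a2* difference rested on that heart. The values rest on 6 to 49 fragments per heart.

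*Ier2* (ENSMUSG00000053560, chromosome 8, 84661331 to 84662852, minus strand), a small nuclear protein of the early response, was at 29.2, 22.1, 15.1, 19.1 and 21.04 FPKM in vehicle hearts 1 to 5. MEKi hearts 1 to 5 were at 16.3, 16.8, 18.1, 12.1 and 11.5 FPKM. As for *Egr1*, vehicle heart 1 was the highest, vehicle heart 3 was the only vehicle heart within the MEKi range, and MEKi hearts 4 and 5 were the lowest. The means were 21.3 ± 5.18 and 15.0 ± 2.97 FPKM (SD, n = 5 each), a change in the mean of -29.7%. The log2 fold change was -0.50 (SE 0.18, 95% confidence interval -0.89 to -0.10, limma adjusted p = 0.554; exact permutation test, p = 0.0476), and it was -0.37 without vehicle heart 1.

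*Ier5* (ENSMUSG00000056708, chromosome 1, 155096361 to 155099636, minus strand), which is known to act on heat shock factor 1, was at 9.69, 12.0, 13.7, 18.5 and 15.9 FPKM in vehicle hearts 1 to 5. MEKi hearts 1 to 5 were at 11.3, 10.7, 8.44, 12.8 and 8.10 FPKM. All MEKi hearts lay below the vehicle median, and vehicle hearts 3, 4 and 5 lay above every MEKi heart. The log2 fold change was -0.42 (SE 0.18, 95% confidence interval -0.82 to -0.03, limma adjusted p = 0.619; exact permutation test, p = 0.0794). It was -0.23 with the 3 hearts high in atrial genes left out, among them vehicle hearts 4 and 5, the highest for *Ier5*.

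*Ier3* (ENSMUSG00000003541, chromosome 17, 35821684 to 35822923, plus strand), known for its part in cell survival, was the most abundant early gene and the only one with a higher mean in MEKi hearts. It was at 28.1, 20.7, 28.4, 25.7 and 23.9 FPKM in vehicle hearts 1 to 5 and at 25.9, 29.7, 24.4, 28.8 and 26.2 FPKM in MEKi hearts 1 to 5. The groups overlapped almost wholly. The means were 25.4 ± 3.19 and 27.0 ± 2.19 FPKM (SD, n = 5 each). The log2 fold change was 0.10 (SE 0.10, 95% confidence interval -0.13 to 0.32, limma adjusted p = 0.867; exact permutation test, p = 0.373). The interval leaves out a log2 fold change as low as the -0.42 of *Ier5*, but it overlaps the *Ier5* interval of -0.82 to -0.03. A difference between these genes was not tested. The gene *Flot1* starts 307 bases beyond the end of *Ier3* on the same strand.

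*Phlda1* (ENSMUSG00000020205, chromosome 10, 111506286 to 111508645, plus strand), a pleckstrin homology-like protein often read as an output of MAPK signaling, was at 6.20, 11.9, 14.4, 7.56 and 6.86 FPKM in vehicle hearts 1 to 5. MEKi hearts 1 to 5 were at 6.93, 5.87, 8.71, 9.64 and 4.42 FPKM. Vehicle hearts 2 and 3 were above every MEKi heart, and the other 3 vehicle hearts lay within the MEKi range. The log2 fold change was -0.37 (SE 0.26, 95% confidence interval -0.94 to 0.21, limma adjusted p = 0.777; exact permutation test, p = 0.262), and it was -0.20 without vehicle heart 3. The lincRNA *Gm28592*, annotated on the opposite strand within *Phlda1*, had 0 FPKM in every heart, and the sources used here do not say whether counting used strand.

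**Figure D3:**
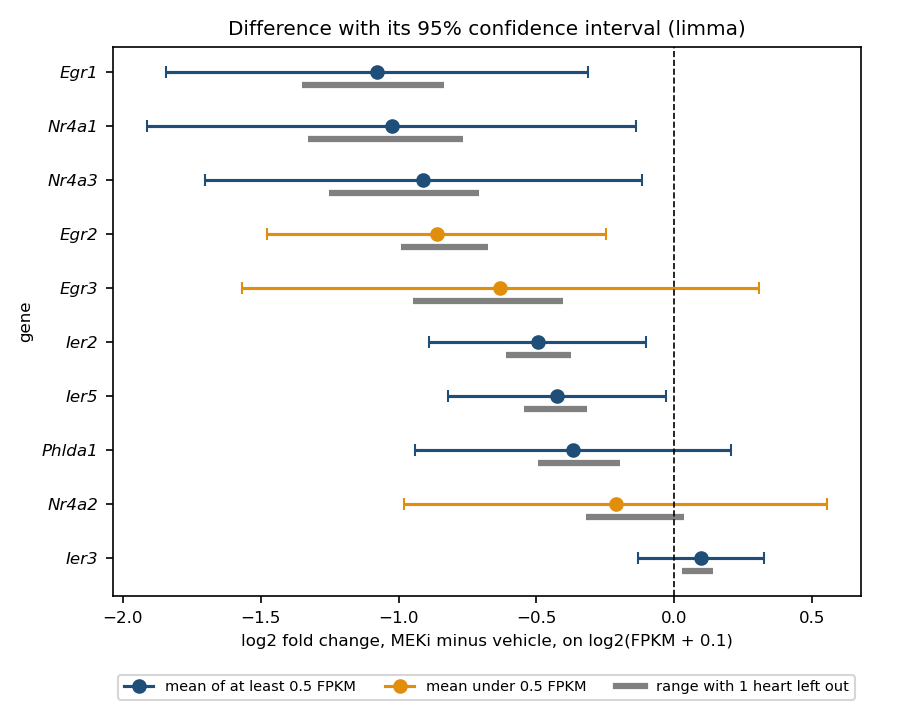
Log2 fold change (MEKi minus vehicle, on log2(FPKM + 0.1)) of each early gene with its 95% confidence interval from limma, and below it in grey the range with each heart left out in turn. Genes with a mean under 0.5 FPKM are in orange. Estimates run from -1.08 for *Egr1* to 0.10 for *Ier3*, and only the grey range of *Nr4a2* crosses 0.

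Ordered by mean FPKM over the 10 hearts, the genes ran *Ier3* (26.2), *Ier2* (18.1), *Ier5* (12.1), *Phlda1* (8.24), *Nr4a1* (4.09), *Egr1* (3.27), *Nr4a3* (0.686), *Egr3* (0.361), *Nr4a2* (0.306) and *Egr2* (0.137). The largest step as a ratio, between *Egr1* and *Nr4a3*, held in all 10 hearts, as did the step from *Nr4a3* to *Egr3*. *Nr4a1* was above *Egr1* in 6 of 10 hearts and *Egr3* above *Nr4a2* in 5 of 10, so the order of these neighbours varied between hearts. Differences in level between genes were not tested. The other steps held in 8 or 9 of 10 hearts. The IER genes and *Phlda1* were thus the abundant members, and the genes with the most negative log2 fold changes, *Egr1*, *Nr4a1*, *Nr4a3* and *Egr2*, lay below them.

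The hearts did not rank alike across the genes. Vehicle heart 1 was the highest of all hearts for 4 genes (*Egr1*, *Ier2*, *Nr4a1* and *Nr4a2*) and the lowest vehicle heart for 3 (*Nr4a3*, *Ier5* and *Phlda1*). Vehicle heart 3 was the highest of all for *Egr2*, *Nr4a3* and *Phlda1* and the lowest vehicle heart for *Egr1* and *Ier2*. These were the same hearts that were highest on the heat shock list, whose part in the early-gene values was not tested. In the MEKi group, heart 5 was the lowest of all 10 hearts for 5 genes (*Egr1*, *Nr4a1*, *Ier2*, *Ier5* and *Phlda1*).

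**Figure D4:**
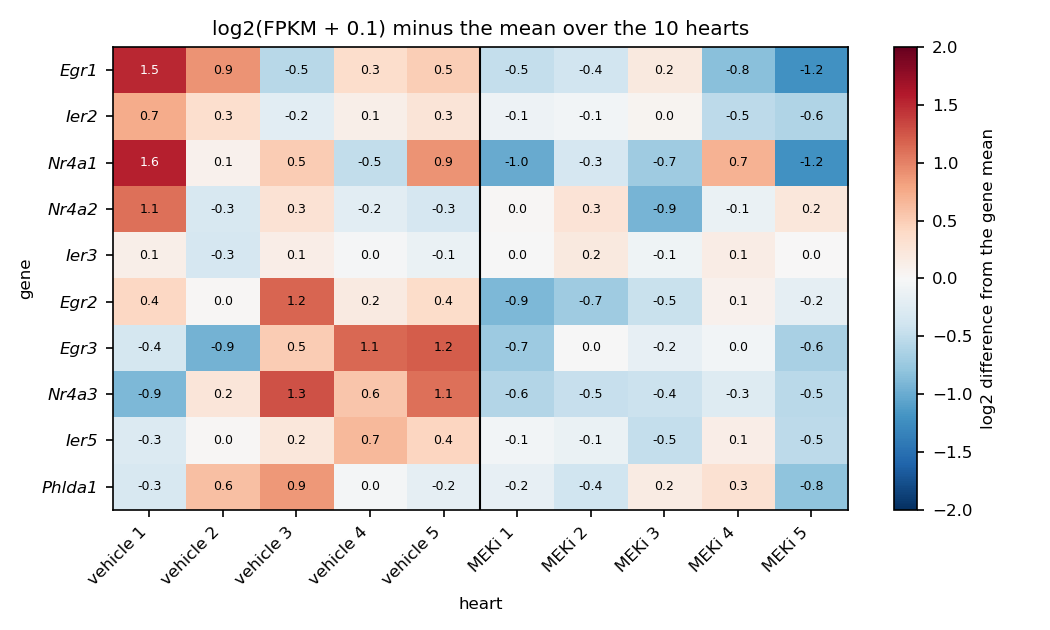
log2(FPKM + 0.1) of each early gene in each heart, minus that gene's mean over the 10 hearts, with red above and blue below the mean and the value printed in each cell. Vehicle heart 1 is high for *Egr1*, *Ier2*, *Nr4a1* and *Nr4a2* and low for *Nr4a3*, and MEKi heart 5 is low for most genes.

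With each group's mean subtracted, *Egr1* and *Ier2* followed each other across the 10 hearts more closely than any other of the 45 pairs of early genes (Pearson r = 0.96, Spearman rho = 0.96). This held without the 2 hearts farthest from the *Egr1* median (r = 0.92, 8 hearts). *Nr4a2* with *Ier3* (r = 0.69, rho = 0.77) and *Egr3* with *Ier5* (r = 0.68, rho = 0.71) came next by r, and *Egr3* with *Nr4a3* by rho (r = 0.61, rho = 0.79). *Egr1* ran opposite to *Nr4a3* (r = -0.72, rho = -0.66), a relation that rested on its extreme hearts, since r was -0.16 without the 2 farthest, and opposite to *Egr2* (r = -0.61, rho = -0.50). The median r over the 45 pairs was -0.01. The genes of a pair share the same libraries, the pairs were read after all 45 had been seen, and these coefficients are given as descriptions without p-values.

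Among 10699 other genes that averaged 1 FPKM or more, those most like *Egr1* by the same measure over the 10 hearts were *Arhgef1* (r = 0.97), *2810410L24Rik* (r = 0.96) and *Anks3* (r = 0.95). Those most like *Nr4a1* were *Paf1* (r = 0.94), *Snrpa1* (r = 0.93) and *Cdc42ep1* (r = 0.92). Without the 2 hearts farthest from the *Nr4a1* median, MEKi heart 4 and vehicle heart 1, these r were 0.85, 0.87 and 0.78. Without the 2 farthest from the *Egr1* median, r with *Egr1* was 0.94, 0.93 and 0.97 in the order given. The genes were taken as the highest of many, and none of them had an adjusted p under 0.05 between the groups (limma, from 0.525 to 0.979).

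The SD of log2(FPKM + 0.1) was larger in vehicle than in MEKi hearts for 10 of 10 early genes, with medians of 0.57 and 0.37. Among the 7 past the filter that all genes tested also passed, the medians were 0.52 and 0.30. Relative to the mean the order was the other way for *Egr2* and *Nr4a1*, whose coefficients of variation on the FPKM scale were 51.7% and 54.7% with vehicle and 68.4% and 63.2% with MEKi. Among all genes tested, the vehicle SD was the larger for 68.1%, with medians of 0.26 and 0.21, so a wider spread among vehicle hearts was not limited to the early genes, and no test of the spread was made. The contrast was widest for *Nr4a3* (SD 0.86 and 0.13) and *Egr3* (0.95 and 0.34) and small for *Nr4a1* (0.78 and 0.75). For *Egr1*, the coefficient of variation among MEKi hearts was 38.9%, where counting error alone gives 8.29%.

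The genes around this family were read from the same fit, as lists set out with earlier results known. Among the transcription factors that ERK acts on at CArG boxes (*Srf*, *Elk1*, *Elk3*, *Elk4*, *Mkl1* and *Mkl2*), 0 of 6 passed an adjusted p of 0.05 and 0 had an unadjusted p under 0.05, with 3 lower, 3 higher and a median log2 fold change of 0.035. *Srf* itself was at 26.1 ± 6.04 and 27.5 ± 4.16 FPKM (SD, n = 5 each; log2 fold change 0.09, limma adjusted p = 0.930). The EGR co-regulators *Nab1* and *Nab2*, which repress EGR proteins, had log2 fold changes of -0.20 and -0.024 (limma adjusted p = 0.797 and 0.980). The retinoid X receptors *Rxra*, *Rxrb* and *Rxrg*, with which some NR4A proteins can pair, had log2 fold changes between -0.072 and 0.081, and none passed after adjustment (limma).

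Of 10 genes of the CREB and MEF2 arm, 0 passed after adjustment, and *Crem* (-0.35) and *Mef2a* (0.31) had an unadjusted p under 0.05 (limma, adjusted p = 0.619 and 0.461), as did 7.62% of all genes tested. *Mef2a*, whose family of factors is known to act on *Nr4a1* in T cells, was the only one whose groups did not overlap, at 5.97 to 7.47 FPKM with vehicle and 7.60 to 9.33 FPKM with MEKi, a state found for 0.794% of all genes tested in that direction. Close relatives outside the 10 genes were close to even or barely detected. *Ier5l* and *Phlda3* had log2 fold changes of -0.057 and 0.023 (limma adjusted p = 0.947 and 0.984), and no heart had more than 2 fragments of *Egr4* or 5 of *Phlda2*.

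Of 25 other immediate early genes, 23 passed the filter, with a median log2 fold change of -0.25. Of these, 15 had a lower mean in MEKi hearts, as did 47.9% of all genes tested, and 8 had a higher mean. None passed after adjustment, and 6 were lower and 2 higher at an unadjusted p under 0.05, where 3.94% and 3.67% of all genes tested were. The 6 lower were *Arc* (log2 fold change -1.08), *Atf3* (-0.77), *Maff* (-0.58), *Fosl2* (-0.54), *Zfp36* (-0.47) and *Btg2* (-0.34), with limma adjusted p from 0.401 to 0.606. *Atf3*, a stress-responsive factor, was at 2.87 to 3.66 FPKM in vehicle hearts and at 0.980 to 2.78 FPKM in MEKi hearts, without overlap (0.849% of all genes tested in that direction). The 2 higher were *Gadd45b*, a stress and growth arrest gene, which was at 3.53 ± 0.334 and 6.53 ± 2.15 FPKM without overlap, as for 0.794% of all genes tested in that direction (SD, n = 5 each; log2 fold change 0.82, limma adjusted p = 0.289), and *Cyr61* (0.38, limma adjusted p = 0.543). *Fos*, the classical partner of *Egr1* in the early response, spanned 1.01 to 2.22 FPKM with vehicle and 0.166 to 1.91 FPKM with MEKi, where hearts 4 and 5 were low as they were for *Egr1* (log2 fold change -0.98, SE 0.56, limma adjusted p = 0.715). *Fosb* and *Npas4*, under the filter, were read from the fit over genes above 0 (-0.52 and -0.27, limma adjusted p = 0.704 and 0.831). There *Fosb* was lower at an unadjusted p under 0.05, as were 2.82% of genes, on 3 to 15 fragments per heart.

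Among 8 ERK feedback genes, 7 passed the filter, 6 with a lower mean (47.9% of all genes tested), and the median log2 fold change was -0.22. None passed after adjustment (limma). *Spry4* (-0.82, limma adjusted p = 0.195) and *Spry2* (-0.22, limma adjusted p = 0.630) were lower at an unadjusted p under 0.05, as were 3.94% of all genes tested. The point estimates of *Egr1*, *Nr4a1*, *Nr4a3* and *Egr2* were more negative than that of *Spry4*, with standard errors of 0.28 to 0.41 against 0.17.

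**Figure D5:**
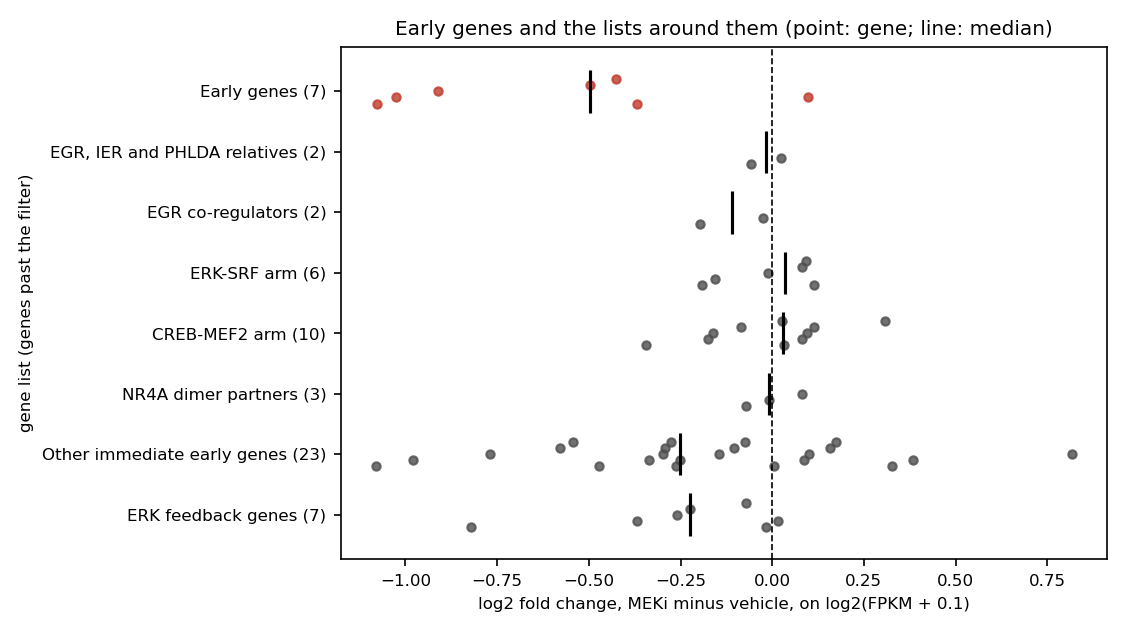
Log2 fold change (MEKi minus vehicle, on log2(FPKM + 0.1)) of each gene past the filter in the early genes (red) and in the lists around them (grey), with each list's median as a black line and the number of genes in parentheses. The median is -0.50 for the 7 early genes, -0.25 for 23 other immediate early genes, -0.22 for 7 ERK feedback genes and 0.035 for the 6 genes of the SRF arm.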

How the data were processed

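RNA-seq of 10 hearts was deposited as FPKM, 1 column per heart, each mapped to its heart by its label. The submitters' processing notes name fastp, STAR 2.5, HTSeq 0.6.1 and mm10; the annotation release and the use of strand are not given in the sources used here. For all 10 genes, coordinates equal those of GENCODE M21. FPKM times gene length came out as whole multiples of 1 step per heart (100% of values, within 0.01), which gave the fragments behind each value. Intervals on fragments cover counting error only.

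The genes and lists were chosen with earlier results of these data known. log2(FPKM + 0.1), which understates changes of low genes, was compared with limma 3.58.1 (R 4.3.3; lmFit, eBayes with trend) over genes that averaged 0.5 FPKM or more, two-sided, with Benjamini-Hochberg adjustment over all genes tested and a threshold of 0.05. Genes under that mean were read from the same fit over every gene above 0. Exact permutation tests (scipy 1.17.1) used the difference of mean log2 values and were not adjusted. The text names the 10 genes, genes of the lists where each is discussed, neighbours in the coordinates, and the 3 genes most like *Egr1* and *Nr4a1*; *Xist* and *Ddx3y* stand for the X- and Y-linked list, of which 4 of 4 genes past the filter were called. The fit was also run on simulated data, with the same spread between hearts, beyond counting error, set for every gene. That run does not show how the fit performs at the spread of the early genes. Mice are the replicates, and labels give no batch or sex.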

Additional observations from a re-analysis of the deposited data

Results flagged for a closer look

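In 20 groups of 5 hearts (10 genes in each of 2 groups), 1 heart lay far from the rest by Dixon's criterion, and chance gives about 1 in 20. It was *Egr2* in vehicle heart 3, at 0.393 FPKM (19 fragments) where the next vehicle heart was at 0.192 FPKM (11 fragments). Without that heart the log2 fold change of *Egr2* was -0.68.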

How the results depend on the processing

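The alternatives gave 221 refitted values for the 10 early genes, those with a mean of at least 5 FPKM being for *Ier2*, *Ier3*, *Ier5* and *Phlda1* alone. No early gene passed an adjusted p of 0.05 in any of them, and 220 kept the direction of the difference. The exception was *Nr4a2*, which ran from -0.32 without vehicle heart 5 to 0.036 without vehicle heart 1 with each heart left out, and was -0.56 without the 3 hearts high in atrial genes. Without these 3 hearts *Egr1* (-1.20), *Egr2* (-0.90), *Nr4a1* (-1.28), *Ier2* (-0.58) and *Phlda1* (-0.51) were also more negative than with all hearts. The differences of *Egr3* (-0.13), *Nr4a3* (-0.66), *Ier5* (-0.23) and *Ier3* (0.044) were smaller in size. At an unadjusted p under 0.05, between 3 and 7 of the 10 genes were counted, against 6. The median over the 7 genes past the filter stayed between -0.61 and -0.41, and over the 4 genes left with a mean of at least 5 FPKM it was -0.40. The count over all genes, 10, was 2 with a mean of at least 5 FPKM, 18 with array weights, 5 without the 3 hearts high in atrial genes (an alternative chosen after seeing the data), between 5 (without vehicle heart 2) and 13 (without vehicle heart 1) with each heart left out, and 0 without X, Y and mitochondrial genes (limma; 924 at an unadjusted p under 0.05, and 9 by voom with all genes). The cause was not tested. With the replicate block the count was 4, and it changed no call for an early gene; the number pairs nothing in the labels, and the correlation of same-numbered hearts ran from -0.15 to -0.02. On a TPM scale the median of all genes was 0.088 in place of 0.011, and 234 genes were lower and 776 higher at an unadjusted p under 0.05, against 497 and 463. Depth limits *Egr2*, *Egr3* and *Nr4a2* most, at 1 to 54 fragments per heart.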
